A study of Caenorhabditis elegans with 2 samples.

Results

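The DREAM (DRM) complex of Caenorhabditis elegans was examined through the promoters of the 8 genes that encode its subunits, namely lin-35, lin-53, lin-54, lin-9, lin-37, lin-52, efl-1 and dpl-1, out of 19973 protein-coding genes. The binding measured was that of the zinc finger protein SDZ-12, in 1 group of 2 biological replicates. Worms of strain OP670 carried the transgene array wgIs670, in which sdz-12 is fused to TY1, EGFP and 3xFLAG tags, with unc-119(+) as the rescue gene, in the mutant background unc-119(tm4063). Whole animals of mixed sex were collected as L4 larvae at an age of 71 hours, after synchronisation as starved L1 larvae, and tagged SDZ-12 was precipitated with an antibody against GFP. The 2 replicates share this genotype, stage and antibody, and there was no second condition. An untagged immunoprecipitation was not analysed here. The tagged protein came from an array, and all tissues of the larva were pooled, so the cells in which a site was bound are not resolved.

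DREAM is a repressor complex best known for holding cell cycle and germline genes silent. A pocket protein of the retinoblastoma family (LIN-35) joins an E2F-DP heterodimer (EFL-1 and DPL-1) to the MuvB core (LIN-9, LIN-37, LIN-52, LIN-53 and LIN-54). In the worm its subunits are class B synthetic multivulva (synMuv B) gene products, which oppose ectopic vulval fates in the larva.

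The genes were chosen by their place in the complex after the signal and position of optimal calls at lin-35, lin-53 and lin-54 were known, so counts over the 8 genes are a description and carry no test. A call is an interval with a summit in one of the authors' lists, and the rank of a call is its place in the list by the authors' signal value, the strongest being 1. The optimal list holds 665 calls and the pooled list and each replicate list hold 30000, background calls included. The optimal calls were the 665 strongest pooled calls. A promoter window reached 1000 bp before and 200 bp past a gene's annotated 5' end, and negative positions are upstream. How the signal was scaled is not stated in the labels or files, so values of different lists are given side by side and not compared. Read depth is unknown.

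The sites with the letters shown here are those at lin-54, where an optimal call lay between divergent genes, and at lin-9, efl-1 and lin-52, where calls were weaker. Each is written 5' to 3' on the plus strand of WBcel235, from the RefSeq copy of that assembly. The lin-54 stretch (chrIV:13240652-13240752) starts at the base beside the 5' end of the divergent gene rpl-12 and runs toward lin-54. The others hold 50 bp on each side of the strongest replicate 2 summit of lin-9 (chrIII:8904234-8904334), the pooled summit of efl-1 (chrV:16965791-16965891) and the strongest pooled summit of lin-52 (chrIII:9825224-9825324). The stretches at lin-54, lin-9 and efl-1 are intergenic and that at lin-52 is coding sequence of its neighbour ZK632.9. Capitals mark TTCAAA, the reverse complement of the CHR word TTTGAA, and the word GTGGAGCGC.
lin-54: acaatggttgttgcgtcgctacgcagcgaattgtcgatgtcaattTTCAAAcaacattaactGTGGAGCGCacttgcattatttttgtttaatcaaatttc
lin-9: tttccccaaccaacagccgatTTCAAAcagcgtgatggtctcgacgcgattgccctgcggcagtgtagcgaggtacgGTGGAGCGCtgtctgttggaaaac
efl-1: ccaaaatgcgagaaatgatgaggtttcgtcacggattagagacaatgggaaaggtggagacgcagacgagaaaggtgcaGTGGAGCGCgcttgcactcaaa
lin-52: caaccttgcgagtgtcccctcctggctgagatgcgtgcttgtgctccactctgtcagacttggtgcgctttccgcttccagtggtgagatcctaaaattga

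The subunits differed widely. An optimal call lay in the promoter windows of 3 of 8 genes, lin-35, lin-53 and lin-54, against 1.61% of all protein-coding genes. The other 5 had no optimal call, though lin-52 had a call among the 665 strongest of replicate 2. A pooled call of any strength lay at 6 of 8, against 31.6% of protein-coding genes, a replicate 1 call at 7 against 32.1%, and a replicate 2 call at 6 against 30.9%. Both replicate lists held a call in the window of 6 genes, against 18.3%, and in 5 of them the summits of the replicates lay within 200 bp of each other, against 15.3%. A call among the 665 strongest of each replicate was found at lin-35 and lin-53, against 0.961% of protein-coding genes. The window of 1 gene, lin-37, held no call in any list, as did those of 54.1% of protein-coding genes. Because the genes were chosen with the optimal calls known, nothing is read from these shares.

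**Figure D1:**
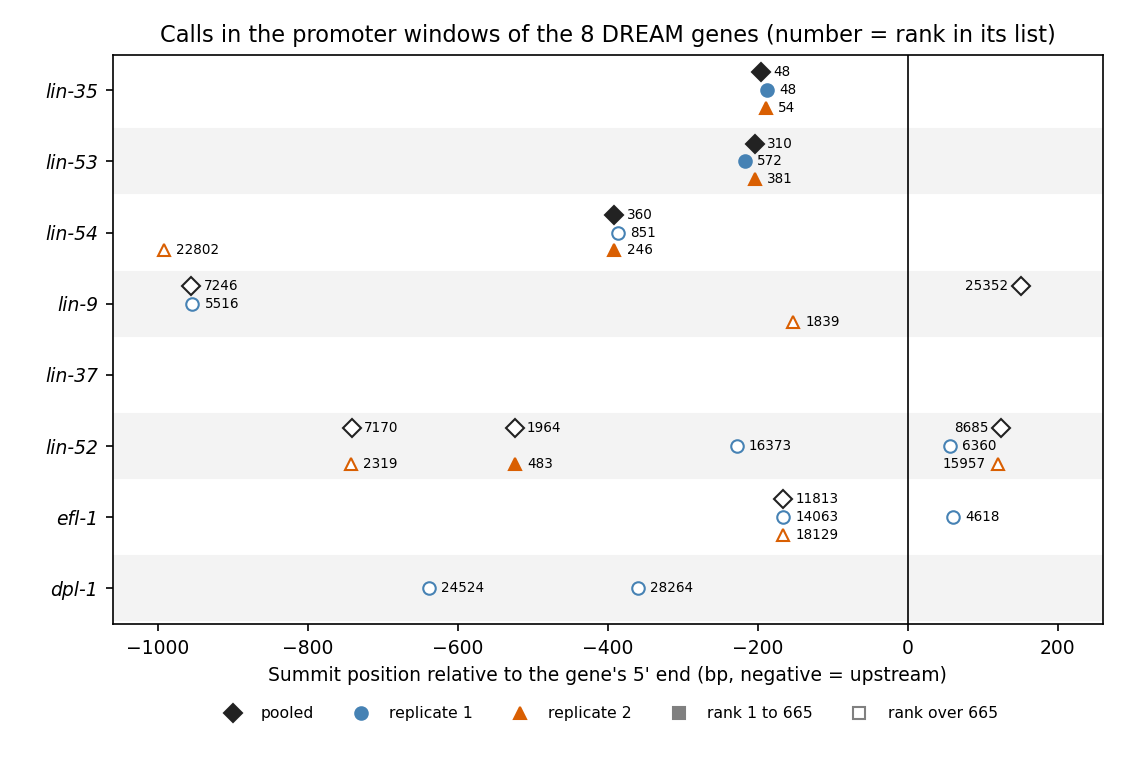
Position of every call in the promoter windows of the 8 DREAM genes, as distance of the summit from the gene's 5' end in bp, with the rank in its list printed beside each point. Diamonds are pooled calls, circles replicate 1, triangles replicate 2, and filled symbols have a rank of 665 or less. The strongest calls of lin-35, lin-53 and lin-54 line up in all 3 lists, lin-54 has a further call of rank 22802 in replicate 2 alone, the calls of lin-9 and lin-52 scatter, and lin-37 has none.

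The gene of the pocket protein, lin-35 (WBGene00003020, chrI:5807709-5815637, plus strand), had the strongest call of the complex. Its signal was 276 in the pooled list, 145 in replicate 1 and 130 in replicate 2. The call ranked 48 in the pooled list, 48 in replicate 1 and 54 in replicate 2, so the replicates placed it almost alike. The authors' -log10 q-value was 2.21 in the pooled list, 2.44 in replicate 1 and 2.18 in replicate 2. These are the highest values of their lists and were shared by 243, 138 and 227 calls, so the q-value does not order lin-35 among the strongest calls. A promoter call of this rank or better was present at 0.230% of protein-coding genes in the pooled list. The summits lay at positions -195, -188 and -189 bp in the pooled list, replicate 1 and replicate 2, with 1 bp between the replicates. Over the 650 optimal peaks with a summit of each replicate within 200 bp of the optimal summit, the median gap between replicates was 22 bp (quartiles 6 and 59.75 bp). The strongest such summit of each replicate was taken, and neighbouring optimal peaks can share it. This can widen the gap and the rank ratio at some of these peaks.

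The lin-35 call is intergenic and shared. The divergent neighbour vps-51, which encodes a subunit of a tethering complex of retrograde vesicle traffic, lies with 417 bp between the genes. The pooled summit stood at -223 bp from the 5' end of vps-51 and at -195 bp from that of lin-35. Position alone does not assign the call to either gene. Inside the long lin-35 gene, beyond the window, the pooled list held 4 further calls, the best at rank 10246 with signal 72.3, where C32F10.4 overlaps an intron of lin-35.

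The gene of the histone-binding subunit, lin-53 (WBGene00003036, chrI:9618196-9619760, minus strand), a homologue of mammalian RbAp48, had a call of medium rank. Its signal was 168 in the pooled list, 78.8 in replicate 1 and 81.9 in replicate 2. The ranks were 310, 572 and 381. Its pooled signal was near the optimal median of 164 (quartiles 146 and 197). The -log10 q-value was 1.84 pooled, 1.18 in replicate 1 and 2.04 in replicate 2.

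The lin-53 summit lay at -204 bp in the pooled list and in replicate 2 and at -217 bp in replicate 1. The divergent neighbour nra-2, which encodes an endoplasmic reticulum protein associated with nicotinic receptors, lies with 466 bp between the genes, and the pooled summit stood at -263 bp from its 5' end. This call too is intergenic and nearer to the DREAM gene. The paralogue rba-1 follows lin-53 on the same strand, and no call of any list lay in its own promoter window.

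The gene of the DNA-binding subunit, lin-54 (WBGene00003037, chrIV:13241044-13243401, plus strand), had a better rank in replicate 2 than in replicate 1. LIN-54 reads CHR-type elements through its cysteine-rich CXC domains. Its call had signal 161 and rank 360 in the pooled list, signal 72.2 and rank 851 in replicate 1, and signal 90.7 and rank 246 in replicate 2. The log2 ratio of the replicate ranks was 1.79, against a median absolute value of 1.20 over the 650 peaks (quartiles 0.53 and 2.26). The value at lin-54 was thus within the quartiles. The same quantity was -0.17 at lin-35 and 0.59 at lin-53. The summits of the replicates lay 5 bp apart.

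The lin-54 call stood at the neighbour rather than at lin-54. The pooled summit was at -391 bp from the 5' end of lin-54 and at -2 bp from that of rpl-12, the gene of a protein of the large ribosomal subunit, which is divergent with 392 bp between the genes. The printed lin-54 stretch begins beside this summit. When a call was given only to the protein-coding gene with the nearest 5' end, 2 of 8 members kept an optimal call. These were lin-35 and lin-53. Under the same rule 1.20% of all protein-coding genes had an optimal call. A second, weak replicate 2 call of lin-54 at -992 bp (rank 22802) lay inside rpl-12, but 599 bp past its 5' end and so outside its window. It also lies in the windows of tag-115, at -638 bp, and of the snoRNA gene JC8.15, at -975 bp.

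**Figure D2:**
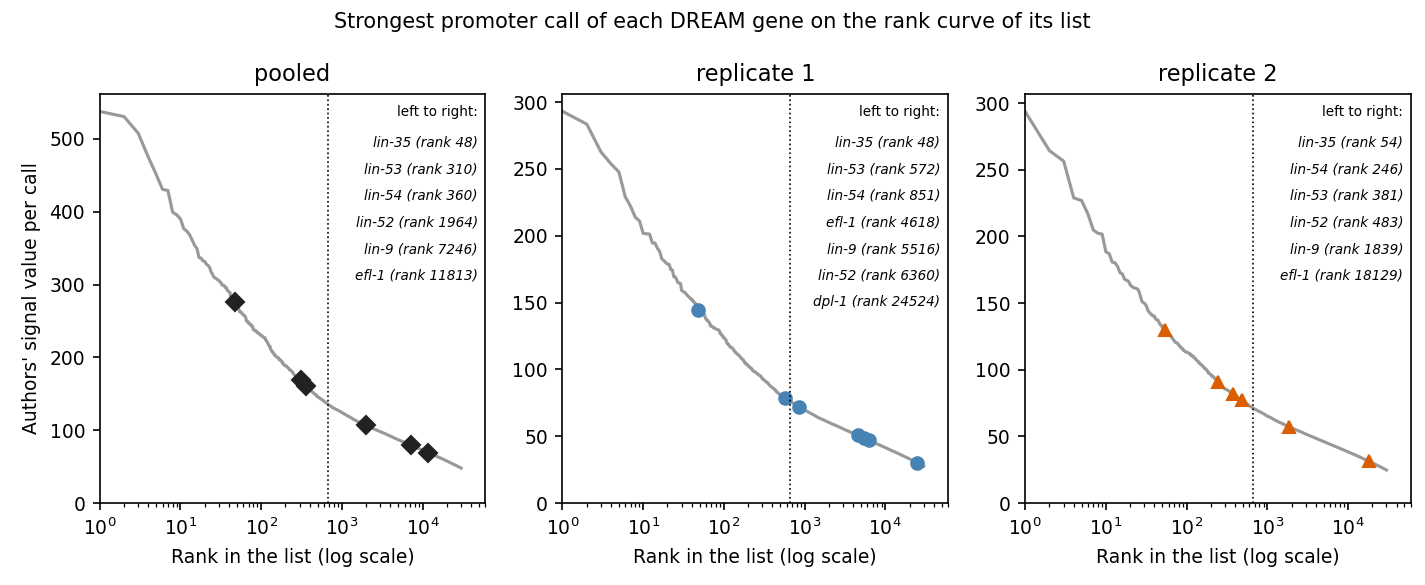
The authors' signal value of each call against its rank (log scale) in the pooled list and the replicate lists, with the strongest promoter call of each DREAM gene marked and named from left to right. The dotted line is rank 665. In each list lin-35 leads the complex, and lin-52 lies left of the line in replicate 2 and right of it in the others.

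All 3 optimal calls of the complex were in gaps between divergent protein-coding genes, and each lay in exactly 2 protein-coding promoter windows. Of the 255 optimal calls in a protein-coding promoter window, 71 (27.8%) were in 2 or more such windows. Counted from the gene side, 146 of the 330 pairs of an optimal summit and a protein-coding promoter (44.2%) were at such shared calls. The nearest tRNA, snoRNA or snRNA gene lay 1576 bp from the lin-54 summit, 14127 bp from that of lin-53 and 18206 bp from that of lin-35. Over the 330 pairs of an optimal summit and a protein-coding promoter, the median position was -268 bp (quartiles -518.75 and -103.25 bp), so the positions at lin-35, lin-53 and lin-54 were all within the quartiles.

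**Figure D3:**
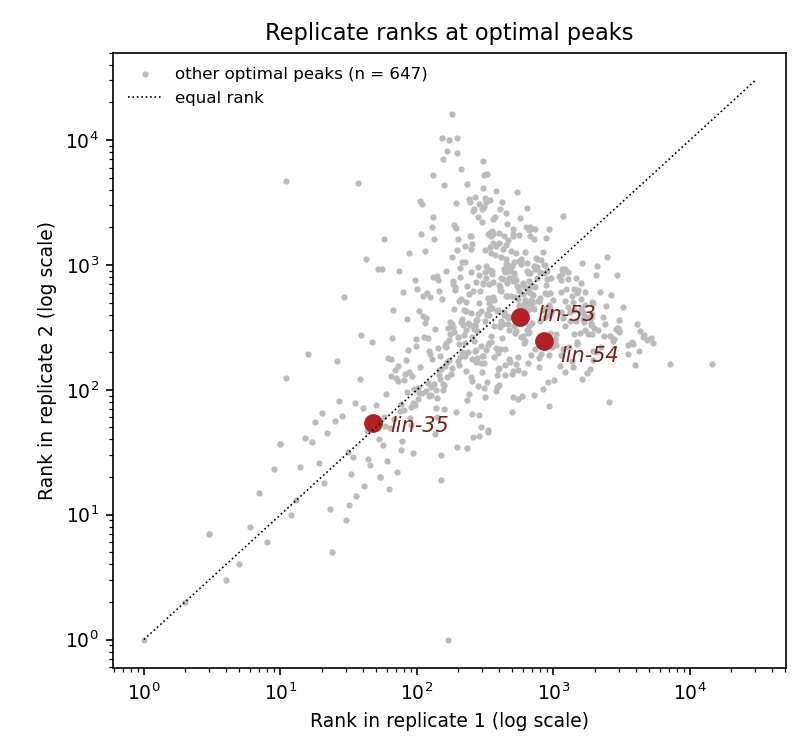
Rank in replicate 2 against rank in replicate 1 (both log scales) at the optimal peaks with a summit in each replicate. Grey points are 647 other peaks, red points the 3 peaks at DREAM genes, and the dotted line marks equal rank. The lin-35 point lies at the line, lin-53 near it and lin-54 below it, toward a better rank in replicate 2.

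The other genes of the MuvB core had weaker or inconstant calls. At lin-52 (WBGene00003035, chrIII:9824083-9824750, minus strand), a gene of the core, the best pooled call had rank 1964 and signal 107 and lay at -524 bp. In replicate 2 the same summit had rank 483 and a signal of 77.0, with a -log10 q-value of 1.75. In replicate 1 no summit lay within 200 bp of it, and the best call in the window had rank 6360 and signal 47.0 at 56 bp. The site at -524 bp was thus strong in replicate 2 alone.

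That lin-52 site fell in coding sequence of ZK632.9, which lies upstream on the same strand with 126 bp between the genes, and 158 bp inside the 5' end of ZK632.9. A further pooled call at -741 bp (rank 7170) stood 59 bp before ZK632.9, at position -59 bp. Another call at 125 bp, with rank 8685 in the pooled list, lay in an intron of lin-52. Near it the replicates had summits at 56 and 121 bp, with ranks of 6360 and 15957. The optimal list ends at signal 136.3 (rank 665) and the next pooled call has signal 136.2, so lin-54 (161) is the member next inside and lin-52 (107) the member next outside.

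At lin-9 (WBGene00002998, chrIII:8900237-8904131, minus strand), another core gene, the replicates marked different places. The best pooled call had rank 7246 and signal 79.4 at -955 bp, with a replicate 1 call of rank 5516 and signal 48.6 at -954 bp. This site is in the window of the divergent unc-32, a vacuolar ATPase gene, and nearer to it, at -529 bp. Replicate 2 had no call there, but one of rank 1839 and signal 57.3 at -153 bp, which neither the pooled list nor replicate 1 held. A pooled call at 151 bp in an intron of lin-9 had rank 25352.

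The window of lin-37 (WBGene00003022, chrIII:7070890-7072552, minus strand), another core subunit, was empty in the 4 lists. The gene begins 60 bp behind ZK418.5 on the same strand. The window ends inside ZK418.5 and does not reach that gene's 5' end. The best call in the window of ZK418.5 had rank 29642 in the pooled list and 27144 in replicate 2. The optimal list and replicate 1 held none there. The nearest upstream call was at -2173 bp in the pooled list, in coding sequence of ZK418.13, with rank 29642. The nearest downstream pooled call was at 6311 bp, past the end of lin-37.

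The E2F-DP genes had no call among the 665 strongest of any list. At efl-1 (WBGene00001161, chrV:16958590-16965675, minus strand), the E2F subunit, a site at -166 bp was called at the same base in the pooled list and both replicates. It also lies in the window of fbxa-90, at -973 bp. Its signal was 69.3 in the pooled list, 37.5 in replicate 1 and 31.4 in replicate 2, at ranks of 11813, 14063 and 18129. Replicate 1 also had a call of rank 4618 at 60 bp, in coding sequence. The efl-1 site shows that a summit can recur to the base at a weak call.

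At dpl-1 (WBGene00001061, chrII:9169910-9172565, plus strand), the DP subunit, which lies within the span of the oppositely oriented gene T23G7.2, the pooled list and replicate 2 held no call. Replicate 1 had a call of rank 24524 and signal 30.3 at -638 bp and one of rank 28264 and signal 28.4 at -360 bp. Neither gene of the heterodimer had a call near the strength of the pocket protein gene's.

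The order of the best pooled ranks was lin-35, lin-53, lin-54, lin-52, lin-9 and efl-1. Among protein-coding genes with a pooled promoter call, the median best rank was 13208 (quartiles 5670 and 21149, 6309 genes). All 6 members with such a call were stronger than this median. For lin-35, lin-53 and lin-54 that place was fixed beforehand. Optimal calls are the strongest pooled calls, and theirs were known when the genes were chosen. The calls of lin-52, lin-9 and efl-1, at ranks of 1964, 7246 and 11813, were not fixed in this way. Nothing is read from the count of 6. A call as strong as that of efl-1 was present at 14.5% of all protein-coding genes. The order between lin-53 and lin-54 turned between replicates, with 572 and 851 in replicate 1 and 381 and 246 in replicate 2. The order of lin-52, lin-9 and efl-1 was reversed in replicate 1, at 6360, 5516 and 4618, against 483, 1839 and 18129 in replicate 2. The place of lin-35 at the top was the same in each.

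The genes most like each member were sought by the Euclidean distance of log2 ranks in the pooled list and each replicate, among protein-coding genes with an optimal promoter call at another site. For lin-35 they were mrps-28 (ranks 42, 46 and 53), a mitochondrial ribosomal protein gene, T13C5.6 (49, 40 and 72) and the chemoreceptor gene sre-23 (53, 50 and 75), at distances of 0.20, 0.49 and 0.50. For lin-53 they were F48A11.4 (351, 603 and 375), mppb-1 (322, 693 and 344), a mitochondrial processing peptidase gene, and Y17G7B.21 (328, 456 and 390), at 0.20, 0.32 and 0.34. For lin-54 they were daf-19 (350, 947 and 287), the gene of an RFX factor of ciliated neurons, T06E4.7 (317, 930 and 190) and lido-7 (392, 645 and 303), at 0.27, 0.43 and 0.52. The replicate ranks are those of the strongest summit within 200 bp of the optimal summit, which need not lie in the promoter window. For lido-7 the replicate 1 summit of rank 645 lay outside its window, and the best replicate 1 call inside the window had rank 3256. Each distance covers 3 ranks, of which the pooled one is made from the same reads as the other two.

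Other genes of the pathway had no optimal call. In 7 lists with 59 different genes, 0 of 59 had an optimal call in the window. For counting error alone, a count of 0 among so few genes allows a share of up to 5.08%, above the 1.61% of all protein-coding genes. The lists are not random draws of genes, so this share is a rough guide and no test. A pooled call lay at 28 of 59 (47.5%), against 31.6% of all protein-coding genes. By list, this was 9 of 14 other synMuv B genes, 1 of 4 synMuv A genes, 7 of 12 genes of G1/S control and other E2F factors, and 5 of 12 S phase genes. It was 1 of 6 genes of other complexes with LIN-53-type proteins, 2 of 5 synMuv suppressors and 3 of 7 germline genes.

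The nearest to an optimal call was chaf-2 (WBGene00022141), singled out after its values were seen, a gene of the chromatin assembly factor complex, in which LIN-53-type proteins also sit. Its pooled call had rank 696 and signal 134 at -165 bp, shared with Y71G12B.30, and its best ranks were 1011 in replicate 1 and 934 in replicate 2. In the synMuv B list the strongest pooled call was that of lin-13, singled out afterwards like the other genes of this list named here, with rank 2599 in the pooled list, 752 in replicate 1 and 13684 in replicate 2. The list also holds mep-1 and let-418, whose products act in a Mi-2 type repressor complex, at pooled ranks of 8915 and 11697. Of the 14 genes, hda-1, a histone deacetylase gene, lin-61, lin-65 and ubc-9 had no call in any list. The same held for 54.1% of all protein-coding genes.

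**Figure D4:**
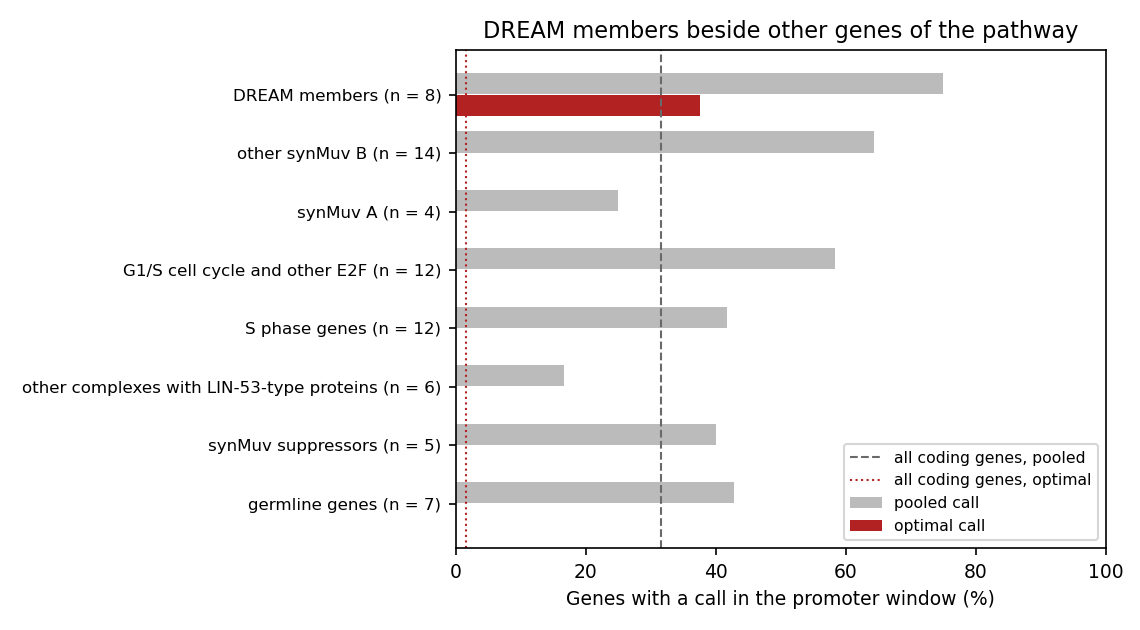
Share of genes with a call in the promoter window (percent), for the 8 DREAM members and the 7 lists of pathway genes, with the number of genes beside each name. Grey bars are pooled calls and red bars optimal calls, and the lines give the shares of all protein-coding genes, 31.6% for pooled and 1.61% for optimal calls. The DREAM members alone have a red bar, and they were chosen with those calls known.

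The sequence under the calls was searched for words of the complex's DNA-binding subunits and of SKN-1, the factor on which expression of sdz genes (SKN-1 dependent zygotic) depends. The bases within 50 bp of a summit were read on both strands. The CHR words were TTTGAA and also TTCGAA. The E2F words were TTTCCCGC and also TTTCGCGC, then TTTGCCGC and also TTTGGCGC. The SKN-1 words were ATGATAA and also ATGACAA, then TTGATAA and also TTGACAA. No word of one motif contains one of another. The SKN-1 words with T as first base are looser forms, which lack the first A of the other SKN-1 words. All SKN-1 words were counted together, so the SKN-1 shares below include windows with only a looser form. They are not shares of strict SKN-1 sites. A CHR word was present at the optimal summits of lin-53 and lin-54 and absent at that of lin-35. Of all 665 optimal windows 18.9% held one, as did 22.4% of the 29335 windows at pooled summits outside the optimal list. No E2F or SKN-1 word was found at these 3 summits, where 3.46% and 5.11% of optimal windows and 2.26% and 7.91% of the other windows had one. The GC content was 41.6% at lin-35, 54.5% at lin-53 and 48.5% at lin-54, and the median of optimal windows was 47.5% (quartiles 41.6% and 53.5%).

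One word recurred in the printed stretches. GTGGAGCGC stands in those of lin-54, lin-9 and efl-1, centred at -326, -184 and -199 bp from the 5' ends, and 60, 31 and 33 bp from the nearest summit of any list. It reads in the direction of lin-54 and against that of lin-9 and efl-1. The word was picked because it recurs there, so its count is a description. It was present in the promoter windows of 3 of 8 members, and in 240 of 19973 windows of the same length (1.20%) over all protein-coding genes. Within 50 bp of summits it was rare, in 2 of 665 optimal windows (0.301%) and 38 of 29335 other pooled windows (0.130%). By this rule the words at lin-54 and lin-9 are not counted. That of lin-54 is 60 bp from its nearest summit, and the summit near that of lin-9 is in replicate 2 alone. Of the 240 genes with the word, 7 (2.92%) had an optimal call, against 1.61% of all protein-coding genes, and 110 (45.8%) a pooled call, against 31.6%. The 240 include lin-54, lin-9 and efl-1, at whose called sites the word was picked, so nothing is read from these shares.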

How the data were processed

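Chromatin immunoprecipitation of tagged SDZ-12 was sequenced in 2 replicates. Per the deposited text files, the authors called intervals in each replicate and on pooled alignments, each with a control file, and derived the optimal list from these by the irreproducible discovery rate (IDR). The assembly was ce11, per the labels. The peak caller, aligner and thresholds are not given in the sources used here. Each deposited call has a signal value and a -log10 q-value by the authors. Read counts were not used and depth is unknown, so precision per call cannot be stated.

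Calls were ranked by signal, ties being ordered by the -log10 q-value, and assigned by summit to promoter windows of Ensembl release 115 genes (WBcel235, the same assembly as ce11, with 0 calls past a chromosome end). The share allowed by a count of 0 is 3 counts of the total, for counting error. No test was applied, since there is 1 group and the members and lists were chosen with earlier results of these data known. Genes named were the members, genes sharing their calls, the 3 nearest by rank for each member with an optimal call, and pathway genes with an optimal call, of which there were 0. The pathway genes named (chaf-2, lin-13, mep-1, let-418, hda-1, lin-61, lin-65, ubc-9 and rba-1) and the neighbours that share no call with a member were chosen after their values were seen. The window assignment was tested on simulated data. Window limits, 5' ends, assignment, thresholds and single replicates were varied. Python 3.11.15, NumPy 2.4.6, pandas 2.3.3, pysam 0.24.0 and matplotlib 3.10.9 were used.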

Additional observations from a re-analysis of the deposited data

How the results depend on the processing

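The count of 3 members with an optimal call was between 2 and 4 under all 11 alternatives tried, with lin-35 and lin-53 in each. It was 2 with the nearest protein-coding 5' end and with the stronger part of the optimal list. For a single replicate, its 665 strongest calls stood in for the optimal list, so these are not counts of optimal calls. They gave 2 members with replicate 1 alone and 4 with replicate 2 alone, where lin-52 joined. Under these alternatives the share of all protein-coding genes was between 0.971% and 2.36%. The count of 2 members among the strongest calls of both replicates was 1 (lin-35) with fewer calls of each replicate, at most 332, and 2 or 4 with replicate 1 or replicate 2 alone. The single-replicate counts are those given above, and lin-52 and lin-54 are the members added with replicate 2 alone. By its definition this count can only stay or rise when 1 replicate is left out. It can only stay or fall when fewer calls are taken. With more calls of each replicate this count was 3. For this count the share of all protein-coding genes was between 0.561% and 1.56%. The count of 0 pathway genes became 1 with 2000 bp upstream, namely rba-1, through the call at lin-53. In that window 2.36% of all protein-coding genes had an optimal call. The alternatives for pathway genes and that of a shared site were chosen after seeing the data. All other counts stayed within 1.5 times. Among them, the count of 6 members called in both replicate lists became 4 with the nearest protein-coding 5' end. The share of all protein-coding genes was then 14.2%. No paired analysis was possible because there is 1 group of samples. Depth is unknown, and 2 replicates limit every statement on agreement.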
